A study of Rattus norvegicus with 6 samples.

Results

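Skeletal muscle genes were followed in the rat dorsolateral prostate, an organ of secretory glands set in smooth muscle and close to striated muscle of the urethra. The set was 9 genes of striated muscle: Casq1, Pvalb, Tnnc2, Acta1, Ckm, Tnnt3, Tnni2, Mb and Atp2a1. Members were found by their gene annotation, not by their values. 8 of the 9 genes were found, each with 1 probe set, so the members were 8 of the 8799 probe sets on the array, and 8 of 4736 named genes. Mb, myoglobin, had no probe set annotated to it here. The samples came from 6 male ACI rats, an inbred strain, aged 18 months. Of these, 3 had been fed a diet high and 3 a diet low in corn oil for 18 months, and total RNA of each rat went on its own array. The replicates were therefore separate animals, called here high-oil rats 1, 2 and 3 and low-oil rats 1, 2 and 3 after the replicate numbers of the labels. RNA was taken from part of each resected dorsolateral prostate, the rest going to histology, and in such whole tissue fewer cells of a type and less RNA per cell cannot be told apart.

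Fast skeletal muscle fibres contract when calcium leaves the sarcoplasmic reticulum and binds troponin on the thin filament, and they relax when calcium is pumped back. Casq1 stores that calcium inside the reticulum, Atp2a1 is the fast-fibre calcium pump, and Pvalb is a soluble calcium buffer. Tnnc2, Tnni2 and Tnnt3 are the calcium-binding, inhibitory and tropomyosin-binding subunits of fast troponin, Acta1 is the skeletal alpha-actin of the thin filament, and Ckm is the muscle creatine kinase that regenerates ATP. Smooth muscle, which surrounds prostate glands, uses no troponin and has alpha- and gamma-actins nearly identical in protein sequence to Acta1.

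Upstream sequences are shown for 4 genes whose array patterns are compared below, because muscle promoters often carry E-boxes bound by myogenic factors and CArG boxes bound by serum response factor. They are RefSeq windows of 250 bases that end at the base before the annotated start, on build GRCr8. Capitals mark E-boxes of the form CAGCTG, E-boxes of the form CAGGTG, the TATA box TATAAA and the CArG box, each searched on both strands.
Ckm, chr1:88189211-88189460, plus strand: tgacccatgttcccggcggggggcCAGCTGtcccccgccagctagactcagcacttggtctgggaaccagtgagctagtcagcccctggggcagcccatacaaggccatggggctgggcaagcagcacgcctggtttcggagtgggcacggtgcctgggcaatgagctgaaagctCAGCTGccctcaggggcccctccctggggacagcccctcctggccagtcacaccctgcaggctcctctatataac
Atp2a1, chr1:190475411-190475660, minus strand: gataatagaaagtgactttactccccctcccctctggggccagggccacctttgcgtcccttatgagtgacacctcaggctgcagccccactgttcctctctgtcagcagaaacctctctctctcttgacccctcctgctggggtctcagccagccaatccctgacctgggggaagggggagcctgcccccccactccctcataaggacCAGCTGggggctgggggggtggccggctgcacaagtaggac
Myh4, chr10:52421898-52422147, plus strand: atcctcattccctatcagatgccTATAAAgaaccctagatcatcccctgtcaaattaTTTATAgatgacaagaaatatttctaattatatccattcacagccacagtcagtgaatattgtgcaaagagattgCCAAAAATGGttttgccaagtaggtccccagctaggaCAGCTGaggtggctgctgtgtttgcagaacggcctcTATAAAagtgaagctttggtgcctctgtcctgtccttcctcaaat
Acta1, chr19:68784195-68784444, minus strand: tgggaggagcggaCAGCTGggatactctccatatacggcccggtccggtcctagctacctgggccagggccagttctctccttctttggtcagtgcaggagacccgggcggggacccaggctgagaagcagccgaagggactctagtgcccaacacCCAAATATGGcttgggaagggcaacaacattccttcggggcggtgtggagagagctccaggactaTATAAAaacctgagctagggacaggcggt
Ckm carried CAGCTG 226 and 75 bases before the start and Atp2a1 carried it 41 bases before. Acta1 carried CAGCTG at 237 and a CArG box at 94, and the fast myosin gene Myh4 carried CAGCTG at 81 and a CArG box at 118. Windows were found for 8 of the 9 listed genes, with none for Tnnt3. CAGCTG was in 4 of these 8 windows and in 12% of the 33469 windows in the table, CAGGTG in 4 and in 15.9%, TATAAA in 3 and in 12.9%, and the CArG box in 1 and in 1.5%. The MEF2 box was in 0 of the 8 and in 0.523% of all windows, and any CANNTG, which includes the 2 E-box forms, was in 8 and in 65.5%. These matches describe letters in a window and no binding was measured.

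Values are deposited intensities on a linear scale, and every array had a trimmed mean of 2500. Array medians ran from 573 to 710, and 18.6% to 23.1% of an array's values were at or below 0. High-oil rat 1 had Spearman correlations of 0.869 and 0.881 with the other high corn oil arrays and of 0.927 to 0.950 with the low corn oil arrays, over 5244 probe sets. High-oil rat 3 is labelled high in the title and source name but low in the description field. The results were therefore also computed without the first array and with the other counted as low. The prostate label was borne out by Pbsn (probasin) and Msmb (microseminoprotein), secretory products of the lateral and dorsal lobes, which lay between 19851 and 99574 for the brightest probe set of Pbsn and between 33652 and 80234 for Msmb.

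Ckm, Atp2a1 and Tnnt3 had largely the same high and low rats, in both diets. Ckm was at 316, 3964 and 745 in high-oil rats 1, 2 and 3, and at 1030, 4161 and 1863 in low-oil rats 1, 2 and 3. It was high in replicate 2 of each diet, and lowest in high-oil rat 1, at a value below the filter level of 342.9 that a probe set's mean had to reach to be tested. Atp2a1 was at 282, 2255 and 219 in high-oil rats and at 238, 1733 and 931 in low-oil rats. The same 2 arrays, both replicates 2, were highest and low-oil rat 3 came next, while the other 3 values lay below the filter level, where their order says little. Tnnt3 was at 480, 2130 and 786 in high-oil rats and at 509, 1228 and 1468 in low-oil rats. High-oil rat 2 was again highest, but low-oil rat 3 stood above low-oil rat 2. For all 3 genes the diets overlapped.

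Across the 6 arrays Ckm and Atp2a1 had a Pearson r of 0.92 (exact permutation p = 0.0222) and a Spearman rho of 0.77 (exact permutation p = 0.103). Ckm and Tnnt3 had an r of 0.85 (exact permutation p = 0.0444) and a rho of 0.77 (exact permutation p = 0.103), and Tnnt3 and Atp2a1 an r of 0.90 (exact permutation p = 0.0417) and a rho of 0.71 (exact permutation p = 0.136). Without the 2 arrays farthest from the median of the first-named gene, r was 0.99, 0.89 and 0.83 for these pairs. Among 21 pairs of the 7 tested members, 18 had a positive r. None passed after Benjamini-Hochberg adjustment over the 21 pairs, where the smallest exact permutation p was 0.311 for r and 0.35 for rho. The members of the set had been proposed with earlier results of these arrays known, so the likeness is a description.

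**Figure D1:**
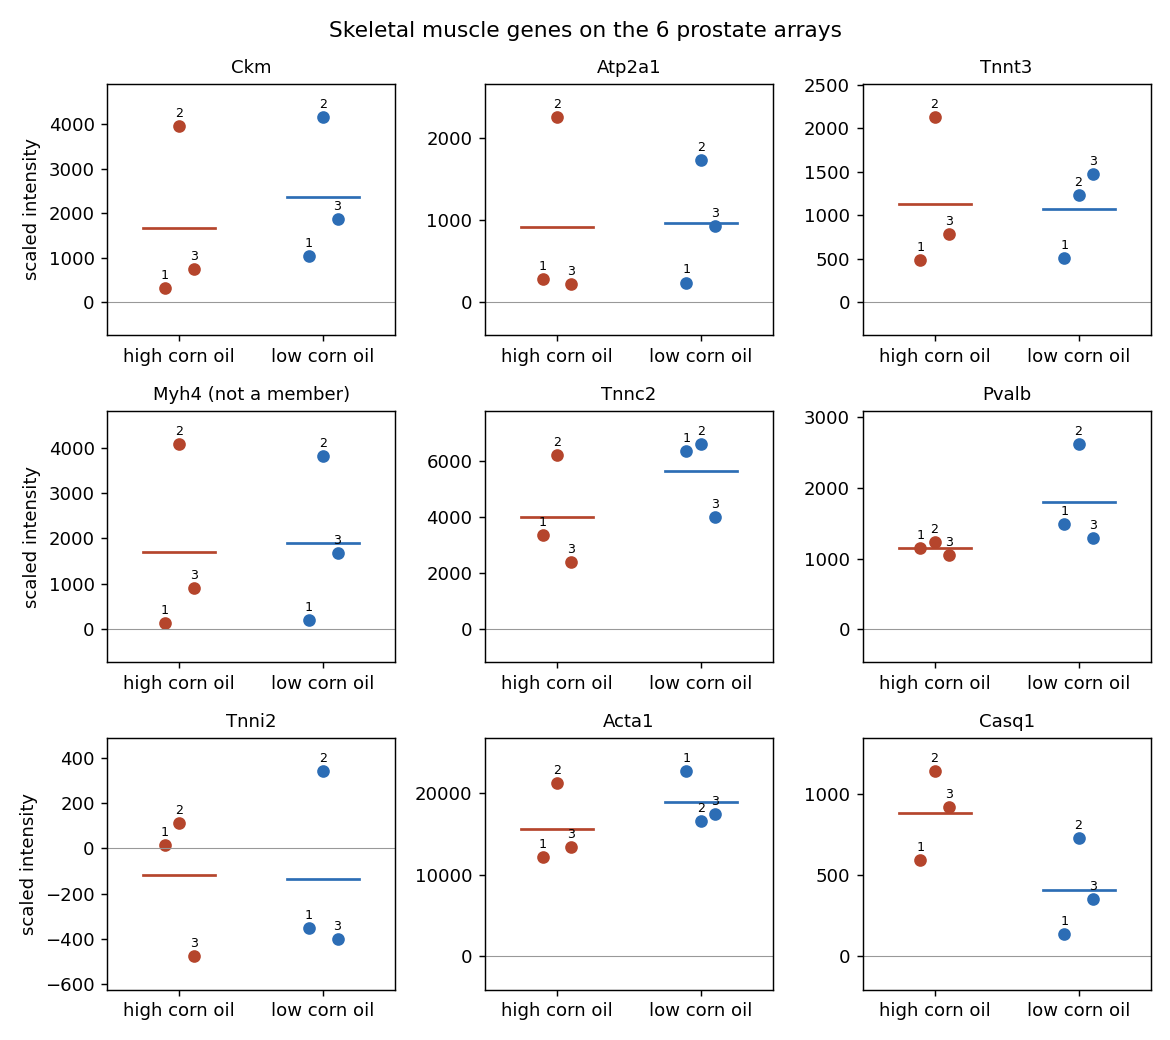
Scaled intensity (vertical axes, linear, each panel with its own range) of the 8 members with a probe set and of Myh4, for each rat; points are numbered by replicate, short lines are the means of 3 rats, and the grey line is 0. Replicate 2 of each diet is the highest array of its diet for Ckm, Atp2a1 and Myh4, whereas Acta1 is highest in low-oil rat 1.

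Tnnc2, Pvalb and Tnni2 shared the high value of low-oil rat 2 but differed on the other arrays. Tnnc2 was at 3366, 6226 and 2413 in high-oil rats and at 6368, 6614 and 4015 in low-oil rats. Its 3 highest arrays lay close together, and they included low-oil rat 1, in which Ckm and Atp2a1 were low. Pvalb was at 1153, 1241 and 1057 in high-oil rats and at 1492, 2621 and 1295 in low-oil rats. Here low-oil rat 2 stood well above the rest, high-oil rat 2 did not stand out, and the diets did not overlap. Tnni2 was dim, at 15.6, 111 and -477 in high-oil rats and at -350.3, 340 and -399 in low-oil rats. Only 3 of its 6 values were above 0, and the 2 highest were again low-oil and high-oil rat 2. Pvalb and Tnnc2 had a Spearman rho of 0.94 (exact permutation p = 0.0167, and 0.35 adjusted over the 21 pairs) and an r of 0.68 (exact permutation p = 0.0861), which was also 0.68 without the 2 arrays farthest from the Pvalb median.

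Acta1 had the array order of the mean of smooth muscle genes rather than that of Ckm. It was at 12175, 21161 and 13387 in high-oil rats and at 22628, 16523 and 17439 in low-oil rats. It was highest in low-oil rat 1 and in high-oil rat 2, and the highest value was 1.86 times the lowest. Its r with Ckm was 0.60 (exact permutation p = 0.214) and its rho 0.49 (exact permutation p = 0.356), with an r of 0.80 without the 2 arrays farthest from the Acta1 median. The mean log2 deviation of 10 smooth muscle genes had the same order over the 6 arrays as Acta1, with an r of 0.98 (exact permutation p = 0.00139, the smallest that 6 arrays can give) and a rho of 1.00 (exact permutation p = 0.00278). Adjusted over the 7 members compared with that list, these exact permutation p-values were 0.00972 and 0.0194. The comparison was added to the planned ones, which were between members only. The adjustment does not cover the choice of this list among the other lists, so the likeness is a description. Without the 2 arrays farthest from the list's median r was 0.98. With their brightest probe sets, none of the 10 smooth muscle genes had the full array order of Acta1. For the other 6 members r with the smooth muscle mean ran from -0.47 for Casq1 to 0.75 for Tnnc2, and the smallest adjusted exact permutation p among them was 0.335. The summed value of the 10 smooth muscle genes was 161836, 213948 and 179493 in high-oil rats and 247559, 202354 and 211229 in low-oil rats. The actin proteins are near-identical, and whether the Acta1 probe set also took up smooth muscle actin transcripts was not tested. Acta2, the smooth muscle alpha-actin, had another order: its brightest probe set ran from 33759 in low-oil rat 2 to 46163 in low-oil rat 3, and its other 2 were highest in high-oil rat 2.

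Casq1 had its lowest values in low-oil rats 1 and 3. It was at 597, 1143 and 922 in high-oil rats and at 137, 730 and 354 in low-oil rats. High-oil rat 2 was again highest, and every array of the low diet but replicate 2 lay below every array of the high diet. Its r was 0.28 with Ckm (exact permutation p = 0.594) and 0.45 with Atp2a1 (exact permutation p = 0.364), with rho values of 0.26 (exact permutation p = 0.658) and 0.37 (exact permutation p = 0.497). Without the 2 arrays farthest from the Casq1 median r was 0.55 and 0.45.

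Read array by array, high-oil rat 2 and low-oil rat 2 each lay above the mean of the 6 arrays in 6 of the 7 tested members, and each was the highest array in 3. High-oil rats 1 and 3 each lay above the mean in 1 member. Each was the lowest array in 3 members, and they were lowest in 17.7% and 20% of all tested probe sets. Over all 5244 tested probe sets, high-oil rat 2 was the highest array in 25.9% and low-oil rat 2 in 10.3%. Both together held the 2 highest values in 2 of the 7 tested members, Ckm and Atp2a1, and in 3.15% of all tested probe sets. They also did so in Tnni2, which was too dim to be tested. The mean log2 deviation of the 7 members was 0.77 and 0.65 in these 2 arrays, -0.66 and -0.46 in high-oil rats 1 and 3, and -0.37 and 0.07 in low-oil rats 1 and 3. Deviations are on the scale of log2(value + 156.4), which understates differences of dim genes. These 2 arrays lay on opposite sides of the median in the bacterial hybridization controls BioB, BioC and BioD, high-oil rat 2 below and low-oil rat 2 above it, with geometric means of 6098 and 15249 over 7 probe sets.

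**Figure D2:**
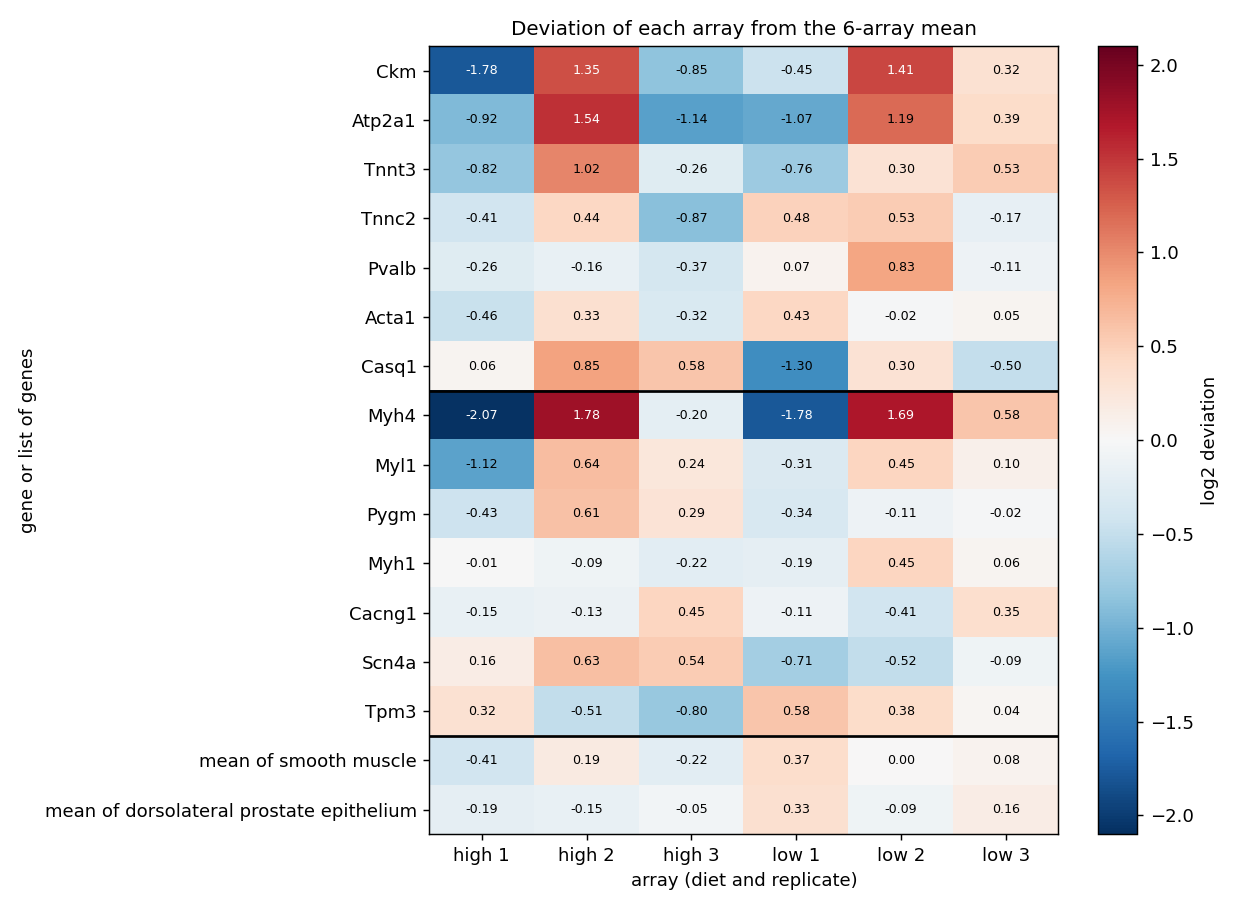
Difference of each array from the mean of the 6 arrays on the log2 scale (colour and printed number), for the 7 tested members above the upper line, 7 other genes listed for fast fibres between the lines, and the mean of 2 lists below. Ckm, Atp2a1, Tnnt3, Myh4 and Myl1 are above the mean in replicate 2 of both diets, and the smooth muscle mean is highest in low-oil rat 1.

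The spread between rats on the same diet was widest for Atp2a1, Ckm and Tnnt3 and near the array's median for Pvalb and Acta1. The residual SD within diets was 1.33 for Atp2a1 and 1.31 for Ckm on the log2 scale, at percentiles 98.4 and 98.3 of the tested probe sets, whose median was 0.31. Tnnt3 had 0.83 (percentile 92.6), Casq1 0.63 (percentile 86.1) and Tnnc2 0.55 (percentile 80.9). Pvalb, with 0.36, and Acta1, with 0.34, were at percentiles 59.1 and 56.4. All 7 values lay above the median of the tested probe sets.

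**Figure D3:**
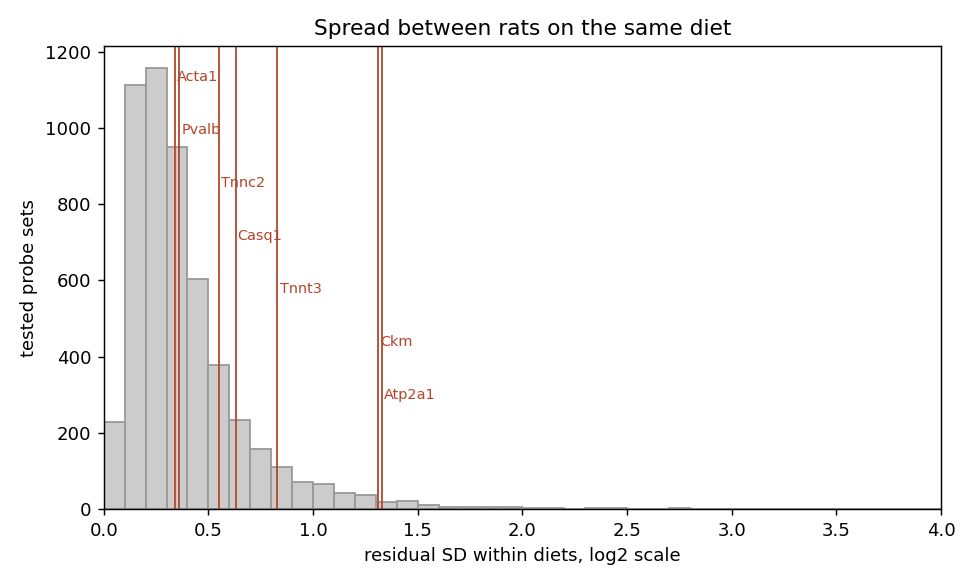
Histogram of the residual SD within diets (horizontal axis, log2 scale) over the 5244 tested probe sets (vertical axis, number of probe sets), with a line for each tested member. Ckm and Atp2a1 stand in the right tail, at 1.31 and 1.33, while Acta1 and Pvalb stand near the median of 0.31.

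Between diets no member passed the test. Of the 8 members 7 passed the filter on low values (Tnni2 did not), 6 of these were lower and 1 higher under the high corn oil diet, and their median log2 difference was -0.34, against 0.032 over all tested probe sets. That median did not hold its size or sign: it was -0.15 without high-oil rat 1, -0.22 without high-oil rat 3, -0.58 without high-oil rat 2, -0.81 with array weights, and 0.02 with high-oil rat 3 counted as low, where 4 of the 7 were positive. At an adjusted p under 0.05 limma called 0 of the 7, where it called 0 of 5244 probe sets (0%), and at an unadjusted p under 0.05 it called 0 of the 7, where it called 523 (9.97%). Values of the diets did not overlap in 1 of the 7, Pvalb, and in 815 of all tested probe sets (15.5%). Pvalb was lower in high-oil rats. Of all 5244 tested probe sets, 6.71% were lower and 8.83% higher without overlap, so 1 of 7 is near the background.

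Ckm averaged 1675 ± 1994 (SD, n = 3) in high-oil rats against 2351 ± 1622 in low-oil rats, a log2 difference of -0.85 ± 0.81 (SE, limma adjusted p = 0.678). Atp2a1 averaged 919 ± 1157 and 967 ± 748, a difference of -0.34 ± 0.83 (limma adjusted p = 0.877). Tnnt3 averaged 1132 ± 877 and 1068 ± 499, a difference of -0.04 ± 0.53 (limma adjusted p = 0.979). For these 3 genes the difference was close to or below its standard error. Without high-oil rat 1 Ckm was at -0.18, Atp2a1 at 0.03 and Tnnt3 at 0.36, and without high-oil rat 2 they were at -1.74, -1.20 and -0.56. Ckm was also at -1.29 without low-oil rat 1, -0.36 without low-oil rat 2 and -0.32 with high-oil rat 3 counted as low, and Atp2a1 was at -0.96 and Tnnt3 at -0.43 without low-oil rat 1.

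Among the other members, Casq1 had the largest difference, 1.00 ± 0.45 (SE) with means of 887 ± 275 and 407 ± 300 (SD, n = 3 each; limma unadjusted p = 0.0598, adjusted p = 0.501). It was at 0.60 without low-oil rat 1 and at 1.40 without low-oil rat 2. Pvalb was at -0.53 ± 0.27 (limma adjusted p = 0.517) and at -0.25 without low-oil rat 2, which held its high value, and at -0.32 with high-oil rat 3 counted as low. Tnnc2 was at -0.56 ± 0.35 (limma adjusted p = 0.554). Its difference was -0.92 without high-oil rat 2, -0.26 without high-oil rat 3 and 0.02 with high-oil rat 3 counted as low. Acta1 was at -0.30 ± 0.24 (limma adjusted p = 0.626). Its difference was -0.15 without high-oil rat 1, -0.17 without low-oil rat 1, -0.54 without high-oil rat 2 and -0.10 with high-oil rat 3 counted as low. Tnni2, below the filter, had means of -117 ± 316 and -137 ± 413, so no fold is given.

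**Figure D4:**
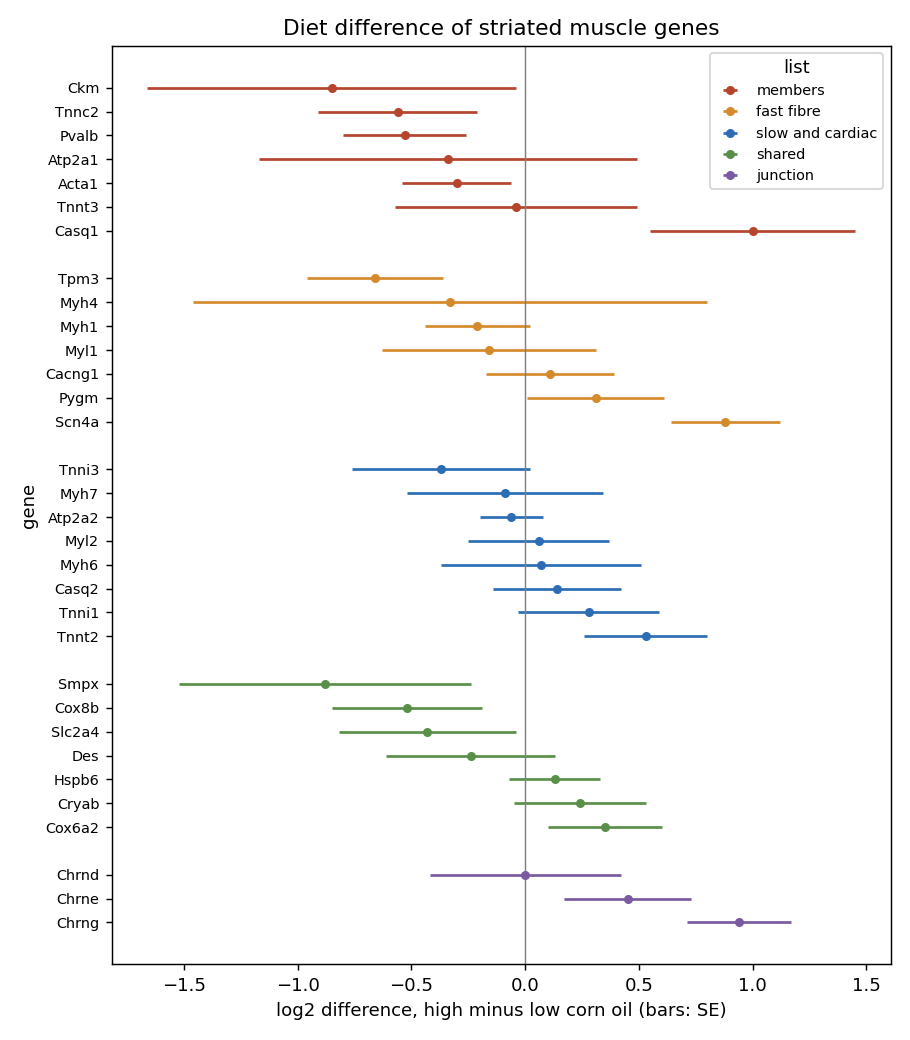
Log2 difference between diets, high minus low corn oil (horizontal axis, points), with its standard error (bars), for the 7 tested members and 25 other tested striated muscle genes grouped by list. Casq1 is at 1.00 and the other 6 members lie between -0.85 and -0.04, and Chrng and Scn4a are the highest of the other lists.

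Among other genes listed for fast fibres, Myh4 and Myl1 had the same 2 highest arrays as Ckm and Atp2a1, and the remaining 5 tested genes did not. Of 18 listed genes 14 had a probe set and 7 passed the filter, of which 3 were higher and 4 lower in high-oil rats and 0 passed limma's adjusted threshold (median -0.16). Myh4, the myosin heavy chain of the fastest fibres, was at 137, 4081 and 915 in high-oil rats and at 202, 3828 and 1688 in low-oil rats. Its 3 highest arrays were those of Ckm and Atp2a1, and its diet difference was -0.33 ± 1.13 (SE, limma adjusted p = 0.913). That difference was at 0.63 without high-oil rat 1, at 0.44 without low-oil rat 2, at -0.12 without low-oil rat 3, and at -1.30 without high-oil rat 2 or low-oil rat 1. Myl1, a fast myosin light chain, was at 367, 1615 and 1190 in high-oil rats and at 765, 1395 and 1067 in low-oil rats, also with both replicates 2 highest. Pygm, the muscle glycogen phosphorylase, was highest in high-oil rats 2 and 3, at 1897 and 1489, and lowest at 841 in high-oil rat 1. Scn4a, the muscle sodium channel, and Tpm3 went other ways. Tpm3 is a tropomyosin that is not particular to fast fibres and is also made outside striated muscle. Scn4a was at 1457, 2083 and 1948 in high-oil rats and at 728, 850 and 1205 in low-oil rats. The diets did not overlap, and the difference was 0.88 ± 0.24 (limma unadjusted p = 0.00789, adjusted p = 0.462), or 0.59 ± 0.38 with high-oil rat 3 counted as low (limma unadjusted p = 0.167, adjusted p = 0.998). The other probe sets of Scn4a lay below the filter and went opposite ways. One averaged 199 and was also higher in high-oil rats without overlap, and the other averaged -204 and was lower in them without overlap. Tpm3 was at -0.66 ± 0.30 (limma adjusted p = 0.501), lowest in high-oil rats 2 and 3, at 10107 and 8288, and 2 other tested probe sets of Tpm3 were at -0.97 ± 0.29 and -1.69 ± 0.57 without overlap (limma adjusted p of 0.462 and 0.478).

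Slow-fibre and heart genes did not share 1 array order. Of 19 listed 15 had a probe set and 8 passed the filter, with 5 higher, 3 lower and 0 past limma's adjusted threshold (median 0.06). Atp2a2, the calcium pump of slow, cardiac and smooth muscle, was at 11151 to 13956 on all 6 arrays with its brightest probe set and highest in low-oil rat 1. Its other tested probe sets had other orders, with the highest value in high-oil rat 2 (10606), low-oil rat 2 (1988) and high-oil rat 3 (1749). Tnni1, the slow troponin I, was at 527, 859 and 575 in high-oil rats and at 619, 341 and 581 in low-oil rats, so that low-oil rat 2 was here the lowest array. Tnnt2, the cardiac troponin T, was at 680, 1228 and 902 in high-oil rats and at 529, 649.9 and 579 in low-oil rats, with no overlap (0.53 ± 0.27, limma adjusted p = 0.516). Tnni3, the cardiac troponin I, was at -0.37 ± 0.39 (limma adjusted p = 0.707). A Myh6 probe set that can take up other myosin heavy chains was highest in high-oil rat 2, at 2514, and next in low-oil rats 3 and 2, at 1576 and 1106. The cardiac genes Actc1 and Myl3 averaged -75.9 and 48.0 over the 6 arrays.

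Genes shared by striated fibres followed more than 1 pattern. Of 25 listed 15 had a probe set and 7 passed, with 3 higher, 4 lower and 0 called (median -0.24). Des, the desmin of all muscle, was at 5404, 13369 and 7990 in high-oil rats and at 15079, 7778 and 8272 in low-oil rats. Like Acta1 it was highest in low-oil rat 1 and then in high-oil rat 2. Slc2a4, a glucose transporter, had the 2 highest arrays of Ckm and Atp2a1 with its brightest probe set, at 1258 in high-oil rat 2 and 1189 in low-oil rat 2. Its other probe set was highest in high-oil rats 3 and 2, at 1122 and 972. Cox6a2, a muscle subunit of cytochrome oxidase, was highest in high-oil rats 2 and 3 (3696 and 3387), and Hspb6, a small heat shock protein of muscle, ran from 7287 to 11952. Cox8b, another oxidase subunit, was at -0.52 ± 0.33 and Smpx, a small muscle protein, at -0.88 ± 0.64 (limma adjusted p of 0.551 and 0.597). Ttn, titin, and Actn2, a Z-disc actinin, averaged -650.1 and -843, and Neb, nebulin, 3.28, near or below 0.

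Genes of the neuromuscular junction and the myogenic factors mostly lay below the filter. Of 14 listed 10 had a probe set and 3 passed, with 2 higher, 1 lower and 0 called (median 0.45). The myogenic factors Myod1 and Myog averaged -24.0 and -1162 over the 6 arrays. Chrng, the fetal subunit of the muscle acetylcholine receptor, was at 2294, 3403 and 3618 in high-oil rats and at 1429, 1328 and 1821 in low-oil rats. The diets did not overlap, and the difference was 0.94 ± 0.23 (limma unadjusted p = 0.00396, adjusted p = 0.462). Without high-oil rat 1 limma called it, at 1.13 ± 0.19 (adjusted p = 0.0375), when it called 214 of 5244 probe sets (4.08%). With high-oil rat 3 counted as low it was at 0.53 ± 0.40 (limma unadjusted p = 0.231, adjusted p = 0.998). Chrne, its adult counterpart, was at 0.45 ± 0.28 without overlap, and Chrnd, the delta subunit, was at -0.00 ± 0.42 (limma adjusted p of 0.555 and 0.996). The alpha and beta subunit genes of the same receptor, Chrna1 and Chrnb1, lay below the filter and averaged -372 and -122 over the 6 arrays.

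Outside the members, the genes most like the mean of the 7 members over the 6 arrays were mostly not genes of the muscle lists. By Pearson r the first 10 non-members were Gpatch2 (0.979), Adh1c (0.950), Zc3h4 (0.938), Chn1 (0.926), Myh4 (0.926), Galm (0.920), Hmga1 (0.919), Matr3 (0.918), Ahsg (0.916) and Enpp2 (0.915). Among the 10, Myh4 was the only gene of the striated muscle lists. Gpatch2 ran only from 412 to 697, against 137 to 4081 for Myh4. With 6 arrays and 5244 probe sets such values of r are a ranking and nothing more. Against the mean of the other 6 members, r was 0.95 for Ckm and for Atp2a1, 0.83 for Tnnt3, 0.59 for Tnnc2, 0.47 for Pvalb, 0.44 for Acta1 and 0.25 for Casq1.

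Each of the other striated muscle lists had its highest mean log2 deviation in high-oil rat 2, but none had it in low-oil rat 2. The mean in these 2 arrays was 0.42 and 0.27 for other fast-fibre genes and 0.42 and 0.01 for shared genes. It was 0.30 and -0.23 for slow and cardiac genes, and 0.52 and -0.39 for junction genes. Of 6 marker lists for other tissues in or around the prostate, none had its highest mean in high-oil rat 2, and 1, blood and endothelium, had it in low-oil rat 2. In high-oil and low-oil rat 2 the mean log2 deviation was 0.19 and 0.00 for 10 smooth muscle genes, 0.19 and 0.10 for 5 genes of peripheral nerve, and -0.09 and 0.17 for 4 adipocyte genes. It was -0.01 and 0.11 for 3 genes of seminal vesicle and coagulating gland, -0.15 and -0.09 for 6 of prostate epithelium, and -0.05 and 0.32 for 3 of blood and endothelium. In the last of these Hbb, beta-globin, was highest in low-oil rat 2 (28543) and lowest in high-oil rat 2 (9858). The mean of the prostate epithelium list joined genes that went opposite ways in these 2 arrays. Sbp was at 45313 in high-oil rat 2 and 6801 in low-oil rat 2, and Epcam was also higher in high-oil rat 2. Pbsn was at 19851 and 82039, and Msmb, Krt8 and Krt18 were also higher in low-oil rat 2. Sbp ran from 1891 in high-oil rat 1 to 53056 in high-oil rat 3. Of the 10 smooth muscle genes 7 were highest in low-oil rat 1, and their median diet difference was -0.32, with 2 higher, 8 lower and 0 past limma's adjusted threshold. Actg2, the smooth muscle gamma-actin, was at 8109, 11016 and 7323 in high-oil rats and at 22537, 12758 and 11379 in low-oil rats (-0.76 ± 0.28, limma adjusted p = 0.480). Myl9, a smooth muscle myosin light chain, was at -0.36 ± 0.14 without overlap, Cald1, caldesmon, at -0.56 ± 0.30 and Tagln, transgelin, at -0.24 ± 0.17.

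Single genes of those other tissues did not pass limma's adjusted threshold either. Among fat genes Cfd, the adipocyte serine protease adipsin, was at 525, 697 and 298 in high-oil rats and at 1731, 1115 and 881 in low-oil rats, a log2 difference of -1.08 ± 0.34 without overlap (limma unadjusted p = 0.0151, adjusted p = 0.462). The log2 differences of the lipase genes Lipe and Lpl and the leptin gene Lep were -0.58, 0.07 and -0.11. Among nerve genes Prx was at 0.78, Nefl at -0.49 without overlap, Uchl1 at -0.40, Cnp at -0.19 and Pmp22 at -0.12. Svs3a, a seminal vesicle secretory protein, was at 2679, 1109 and 3322 in high-oil rats and at 1076, 1231 and 684 in low-oil rats, a difference of 1.04 ± 0.40 (limma unadjusted p = 0.0350, adjusted p = 0.480). Tgm4, the transglutaminase of the coagulating gland, was at 0.13 ± 0.74 and Svs4 at -0.02 ± 0.21. The epithelial genes Epcam and Krt18 were at 0.32 without overlap and at -0.20, and Alas2 of red cells and Pecam1 of endothelium were at 0.17 and -0.07. The amount of striated muscle in each tissue piece was not measured in the data used here, and its part in the values of the members was not tested.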

How the data were processed

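Gene expression was measured on 1 short-oligonucleotide array per rat, with 3 rats per diet. The deposited intensity values are on a linear scale. The submitters' processing notes name MAS5. Version and settings are not given in the sources used here. On each array 18.6% to 23.1% of the deposited values were at or below 0. How values below 0 arose under MAS5 is not stated in these sources. The deposited intensity values were already on a common scale: with 2% of probe sets trimmed at each end, their mean was 2500 on every array. Detection calls were not used, and the number of arrays limits the precision.

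Probe sets were named from the platform annotation, updated through gene identifiers to GRCr8 symbols (6985 of 7006 with 1 gene), and the 59 controls were left out. Values below 0 were set to 0 and transformed as log2(value + 156.4), the median of all values divided by 4. Probe sets with a mean of at least 342.9, the 40th percentile, were tested (5244) with limma 3.58.1 in R 4.3.3 (lmFit, eBayes with intensity trend, all 6 arrays, no covariate), two-sided, with Benjamini-Hochberg adjustment over all of them and a threshold of 0.05. A gene was represented by its brightest probe set. Correlations used exact permutation over the 6 arrays, two-sided. The fit was tested on simulated data.

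Named were all members, the 3 genes of each other list with the smallest p and the 3 brightest, with some examples in the report chosen after their values were seen, and the 10 genes most like the mean of the members. Members and lists were chosen with earlier results of these data known. Alternatives changed the pseudocount, filter, normalization, trend, array weights, blocks, transformation and the diet of high-oil rat 3, and left out each array.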

Additional observations from a re-analysis of the deposited data

How the results depend on the processing

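None of the 7 tested members passed limma's adjusted threshold under any alternative, and their smallest adjusted p was 0.126, for Pvalb with array weights. Over all probe sets, limma called 0 as reported, 9 with no filter and 0 to 214 when each array was left out, the 214 without high-oil rat 1. Of the other striated muscle genes it called 0 to 1 when each array was left out, the 1 being Chrng without high-oil rat 1. Casq1 kept its positive sign, at 0.57 to 1.40, and Pvalb, Acta1 and Ckm kept their negative signs, at -0.81 to -0.25, -0.54 to -0.10 and -1.74 to -0.18. Tnnt3 turned positive without high-oil rat 1 (0.36), high-oil rat 3 (0.08), low-oil rat 2 (0.10) or low-oil rat 3 (0.21), and with high-oil rat 3 counted as low (0.15). Atp2a1 turned positive without high-oil rat 1 (0.03), high-oil rat 3 (0.14) or low-oil rat 2 (0.17), and at 0.47 with high-oil rat 3 counted as low, where Tnnc2 was at 0.02. Without high-oil rat 2 they were at -0.56 (Tnnt3) and -1.20 (Atp2a1). The cause of these changes was not tested. Deviations of same-numbered arrays correlated at -0.05, -0.20 and 0.18 over the tested probe sets. For arrays of different numbers the correlations ran from -0.16 to 0.27. These values cannot show whether the replicate numbers paired the rats. With the replicate number as a block, 0 members and 0 probe sets were called at the adjusted threshold. Ckm was then at -0.85 ± 0.31 (SE, limma unadjusted p = 0.0334, adjusted p = 0.432), against an SE of 0.81 without the block. Casq1 was at 1.00 ± 0.33 (limma unadjusted p = 0.0235, adjusted p = 0.419). Tnnc2 was at -0.56 ± 0.22 (limma unadjusted p = 0.042, adjusted p = 0.452). For the other tested members the unadjusted limma p was 0.083 or more. The SE of Myh4 was 0.28, against 1.13 without the block. Within each diet, Ckm, Casq1, Tnnc2 and Myh4 had their highest value in replicate 2. The block takes out what same-numbered arrays share. The smaller SEs and p-values of these genes therefore follow from that pattern and are no separate evidence of a diet difference. With 3 rats per diet, dim genes such as Tnni2 could not be compared.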
